A study of Mus musculus with 24 samples.

Results

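The genes described here encode the Cop1 ubiquitin ligase and the Tribbles adaptors that deliver substrates to it: the substrate receptor Cop1, listed in the deposited table by its older symbol Rfwd2, the ligase subunits Det1, Dda1, Ddb1, Cul4a, Cul4b and Rbx1, and the pseudokinases Trib1, Trib2 and Trib3. They were chosen by symbol, as 10 of the 47480 genes in the table, and all 10 were among the 14772 genes tested. Wild-type mouse embryonic fibroblasts were profiled by mRNA sequencing in 24 libraries, with 3 replicates in every one of 8 groups: siCTRL DMSO, siCTRL DMSO with Dexa, siCTRL KL001, siCTRL KL001 with Dexa, siCop1 DMSO, siCop1 DMSO with Dexa, siCop1 KL001 and siCop1 KL001 with Dexa. The names siCTRL and siCop1 stand here for small interfering RNAs (siRNAs), a control and one against Cop1, DMSO is the solvent, KL001 is a compound known to stabilise cryptochrome proteins, and the abbreviation Dexa is left as in the labels. All groups carry the same wild-type genotype and an siRNA, so no group was left untransfected. The sources used here give no doses, exposure times, or number and sequences of the siRNAs, and nothing says that replicates came from separate cultures, so p-values measure the spread between these libraries, which may be technical. The series title names the assembly of this ligase and its inhibition by cryptochromes as the subject, and the design asks whether siCop1, KL001 and Dexa, alone or together, alter expression.

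Cop1 is a RING-domain protein that recruits transcription factors for ubiquitination, either by itself or as the receptor of a larger cullin-RING ligase. In that larger ligase a CUL4 scaffold binds the RING protein Rbx1 at one end and the adaptor Ddb1 at the other, and Det1 and Dda1 join Ddb1 to Cop1. Cryptochromes bind Cop1 through the same kind of peptide motif that Tribbles proteins use. Trib1 and Trib2 largely lack a working kinase activity and hold a substrate, classically C/EBPα, against Cop1, whereas Trib3 is best known as a stress-induced gene activated by ATF4 and CHOP that also binds Akt and Cop1.

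The promoter windows of Trib3 and Trib2 are shown because Trib3 and Trib2 changed in more comparisons than the other genes described here, and in opposite directions with KL001. Each is the RefSeq sequence from 250 bases before the annotated start to 30 bases after it, on the strand of the gene (minus in both cases), 5′ to 3′, in the build GRCm38.p6, and capitals mark a motif match.
Trib3, chr2:152344031-152344310: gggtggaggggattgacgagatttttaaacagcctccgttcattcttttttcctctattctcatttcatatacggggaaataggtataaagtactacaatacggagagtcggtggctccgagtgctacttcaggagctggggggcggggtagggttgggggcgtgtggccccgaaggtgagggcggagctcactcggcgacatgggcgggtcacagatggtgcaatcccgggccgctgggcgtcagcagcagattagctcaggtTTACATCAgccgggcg
Trib2, chr12:15816756-15817035: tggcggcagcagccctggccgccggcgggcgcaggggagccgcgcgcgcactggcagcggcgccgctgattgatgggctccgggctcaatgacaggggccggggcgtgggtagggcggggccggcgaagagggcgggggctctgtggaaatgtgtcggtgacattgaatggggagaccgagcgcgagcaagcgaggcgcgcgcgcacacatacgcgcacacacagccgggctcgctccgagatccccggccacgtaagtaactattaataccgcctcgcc
Both strands were searched for 4 motifs, none of which shared a matched base with another here: the C/EBP-ATF composite element TGATGNAA, the E-box CACGTG, the D-box TTATGNAA and the glucocorticoid receptor palindrome, searched as GNACA and TGTNC with 3 bases between them. The Trib3 window held 1 match, the C/EBP-ATF element on the opposite strand, starting 15 bases after the annotated start. Of 32851 windows of this length 3.81% held that element, 6.79% an E-box, 3.26% a D-box and 0.435% the palindrome. Of the 10 genes 9 had a window, and the other 8 windows held none of the 4 motifs. A match is a description of letters, and a window without one holds no information on whether a factor acts there. The GC content was 56.8% in the Trib3 window and 70.7% in the Trib2 window.

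Libraries held 21409988 to 27875023 counts. Values are given as CPM, a gene's counts scaled to a common library total after TMM adjustment. Of 10 fibroblast markers 9 were above 1 CPM in all 24 libraries. Their sum ran from 40000 to 50800 CPM over the siCTRL groups and from 35100 to 43700 CPM over the siCop1 groups. It was 48100 to 50800 in siCTRL DMSO and 40900 to 44900 in siCTRL KL001, so it moved with both siCop1 and KL001. With Dexa it was also lower in DMSO, at 46700 to 47200 CPM in siCTRL and 40000 to 41600 against 42300 to 43700 CPM in siCop1. In KL001 the ranges with and without Dexa overlapped. Summed macrophage markers (5 genes) had medians of 4.17, 3.51, 4.54 and 3.23 CPM in siCTRL DMSO, DMSO with Dexa, KL001 and KL001 with Dexa. In the matching siCop1 groups the medians were 7.62, 9.26, 9 and 10.1 CPM. The highest value in any library was 11.3 CPM for Lyz2, 3.45 for Cd68, 1.73 for Csf1r, 0.247 for Ptprc and 0.132 for Adgre1. Summed markers of simple epithelium (6 genes) had medians of 5.74, 5.1, 4.47 and 4.07 CPM in the same siCTRL groups. With siCop1 these were 9.15, 11.4, 9.85 and 8.83 CPM, and the highest library had 16 CPM. For squamous epithelium (5 genes) the medians were 10.1, 9.78, 7.52 and 11.1 CPM with siCTRL. With siCop1 they were 9.79, 16.6, 8.62 and 14.1 CPM, and 1 library of siCop1 DMSO with Dexa reached 71.7 CPM. Summed endothelial markers (4 genes) reached at most 2.81 CPM. The part of these shifts in the results below was not tested. The heart muscle markers (7 genes, among them Myh6 and Actc1) set some libraries apart, although Myl7 was at most 0.175 CPM in any library. Their sum was 19.2 to 95 CPM in 6 of 12 siCTRL libraries, namely all 3 of siCTRL DMSO and replicate 2 of the other siCTRL groups. It was 1.9 to 2.26 CPM in the other 6 siCTRL libraries and 0.927 to 3.23 CPM in the 12 siCop1 libraries. Results on siCop1 are therefore given below also without the 6 siCTRL libraries of 19.2 to 95 CPM, where 3 settings allow it: in DMSO without Dexa no siCTRL library would be left. For counts of changed genes without these libraries, the matching share of all genes is not given. The shares printed near such counts come from the fit on all 24 libraries and are no background for them.

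Levels of different genes can be compared only per length of transcript. In siCTRL DMSO without Dexa, CPM per kilobase of annotated exons was 210 ± 5.07 for Ddb1 (SD, n = 3 here and below), 87.8 ± 2.5 for Trib3, 35.4 ± 1.01 for Dda1, 31.9 ± 0.989 for Cul4b, 30.7 ± 0.448 for Cul4a, 20.7 ± 1.4 for Rbx1, 15.5 ± 0.952 for Trib2, 3.51 ± 0.234 for Det1, 3.08 ± 0.0987 for Trib1 and 1.62 ± 0.0825 for Rfwd2. Ddb1, which serves many other CUL4 ligases, was thus the most abundant of these transcripts, and the receptor Rfwd2 was the least. No neighbours in this order overlapped in their libraries, but those of Cul4b (31.1 to 33) and Cul4a (30.2 to 31) nearly met. The order in the middle depended on the length used: per kilobase of the longest transcript Cul4a stood at 52.8 ± 0.77, Dda1 at 51.6 ± 1.47, Cul4b at 36.8 ± 1.14 and Rbx1 at 35.3 ± 2.38, where Cul4a overlapped Dda1 and Cul4b overlapped Rbx1. Rfwd2 has 17516 bases of annotated exons but a longest transcript of 6999 bases, and on the latter length it reached 4.06 ± 0.207, close to Trib1 at 4.45 ± 0.142.

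**Figure D1:**
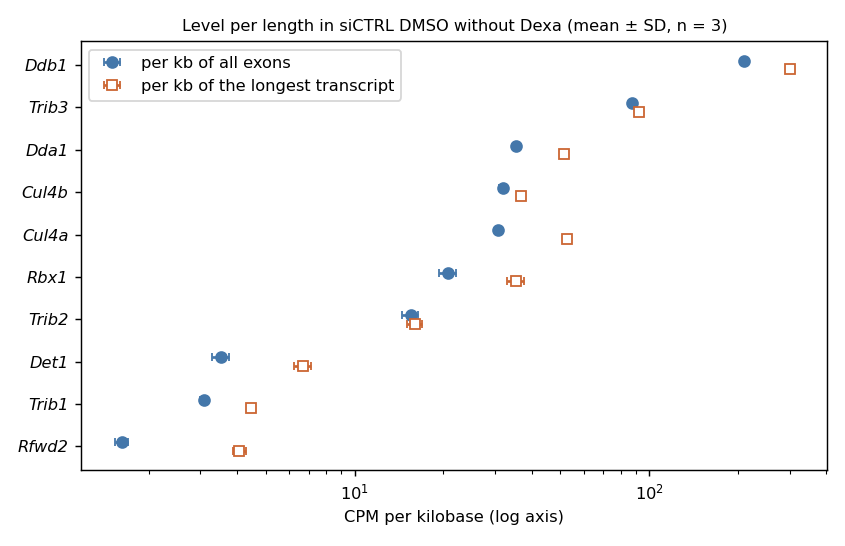
Level of the 10 transcripts in siCTRL DMSO without Dexa, as CPM per kilobase on a log axis (mean ± SD, n = 3), with filled circles for the length of all exons and open squares for the longest transcript. Ddb1 lies at 210 on the first scale and Rfwd2 at 1.62, and both lengths keep Ddb1 first and Rfwd2 last.

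"Changed" means here an adjusted p below 0.05 (edgeR, quasi-likelihood, Benjamini-Hochberg over all tested genes). Among the 10 genes, siCop1 changed 5 in DMSO without Dexa, 1 higher and 4 lower, where 29.4% of all tested genes changed, 12.8% higher and 16.6% lower. It changed 4 when Dexa was added to DMSO, 1 higher and 3 lower, where 31.1% of all genes changed (14.4% higher, 16.7% lower). In the presence of KL001 it changed 5, 1 higher and 4 lower (all genes 32.7%, with 14.5% higher and 18.2% lower), and with KL001 and Dexa together 3, all lower (all genes 30.1%, with 13.7% higher and 16.3% lower). Rfwd2, the target of the siRNA, is 1 of the genes in each of these counts, and of the other 9 genes 4, 3, 4 and 2 changed.

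KL001 changed 2 of the 10 genes in each of its 4 comparisons, Trib3 higher and Trib2 lower. Of all genes 6.73% changed with KL001 in siCTRL without Dexa (3.22% higher, 3.51% lower) and 10.6% in siCTRL with Dexa (4.98% higher, 5.58% lower). In siCop1 they were 4.09% without Dexa (1.77% higher, 2.32% lower) and 5.46% with Dexa (2.5% higher, 2.97% lower). Dexa changed 4 of the 10 in siCTRL DMSO, all lower, where 26.8% of all genes changed (12.7% higher, 14.1% lower). It changed 4 in siCTRL KL001, 1 higher and 3 lower (all genes 26.8%, with 12.7% higher and 14% lower), 3 in siCop1 DMSO, all lower (all genes 23.7%, with 12% higher and 11.6% lower), and 4 in siCop1 KL001, 1 higher and 3 lower (all genes 24.5%, with 12.1% higher and 12.4% lower). Over the 12 comparisons Trib3 changed in 12, Trib2 in 9, Trib1 in 7, Ddb1 in 6, Rfwd2 in 5 and Det1 in 1, and Dda1, Cul4a, Cul4b and Rbx1 in 0.

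Whether siCop1, KL001 and Dexa altered each other's effects was asked by 60 interaction tests on the 10 genes. None passed in edgeR, 5 had an unadjusted p below 0.05, and DESeq2 also called 0. Over all genes the siCop1 by Dexa interaction called 0.67% in DMSO and 0.562% in KL001, the siCop1 by KL001 interaction 0% without and 0.0677% with Dexa, and the KL001 by Dexa interaction 0% in siCTRL and 0.0677% in siCop1.

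**Figure D2:**
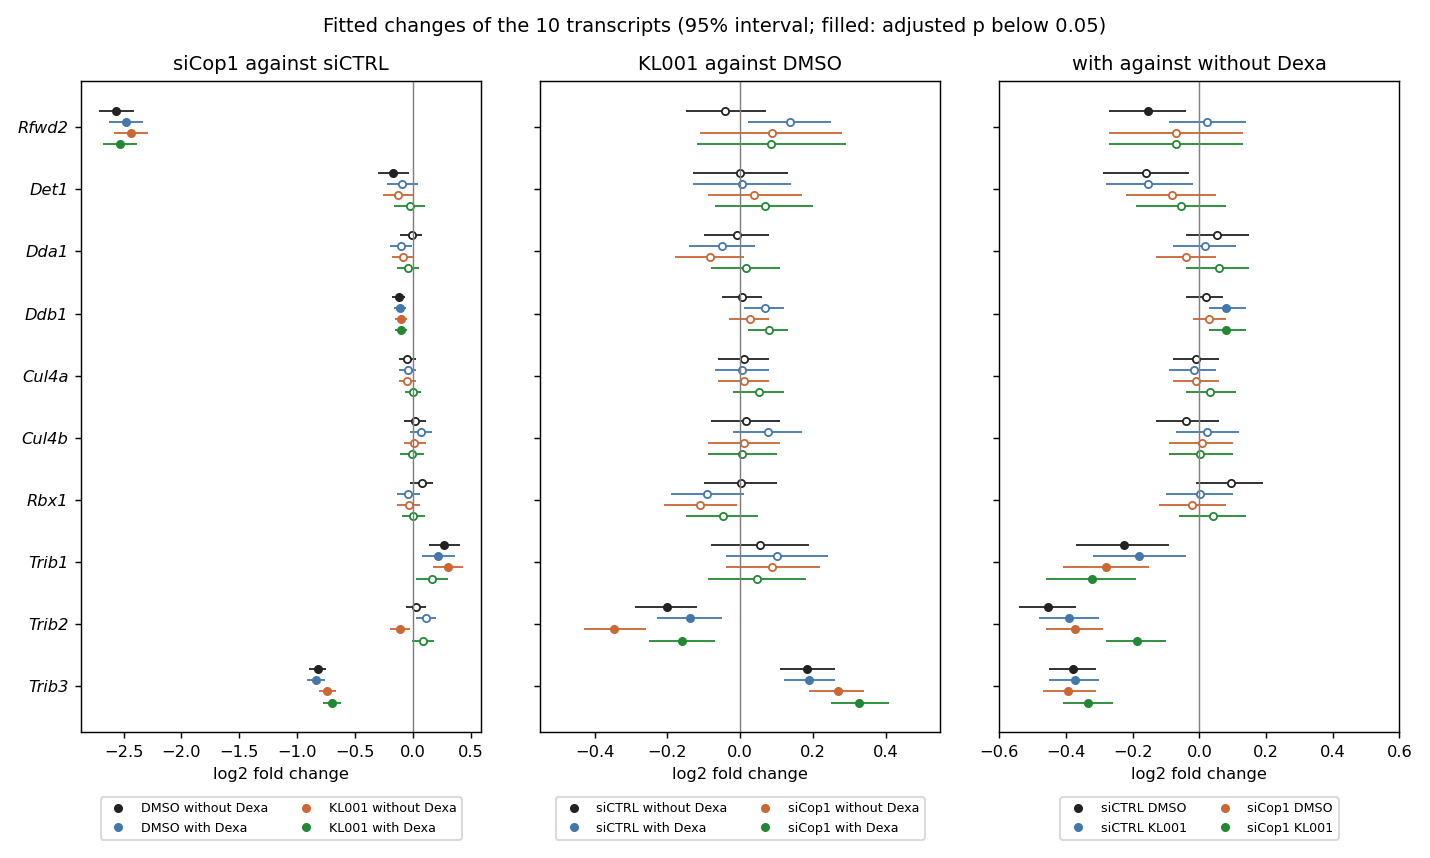
Fitted log2 fold changes of the 10 transcripts with 95% intervals for siCop1 against siCTRL, KL001 against DMSO and with against without Dexa, each in 4 settings given by colour; filled points have an adjusted p below 0.05, and the left panel has a wider axis than the others. Rfwd2 lies between -2.56 and -2.44 with siCop1, Trib3 is filled in every setting of every panel, and Dda1, Cul4a, Cul4b and Rbx1 are open throughout.

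Rfwd2, the substrate receptor (chr1:159232320-159347640, plus strand, GRCm38), was the siRNA target. Without Dexa, the siCTRL DMSO libraries held 29.7, 28.6 and 26.9 CPM of Rfwd2 and the siCop1 DMSO libraries 4.66, 4.78 and 5 CPM. In KL001 without Dexa the values of Rfwd2 were 28.7, 26.2 and 28 CPM with siCTRL and 4.33, 5.17 and 5.79 CPM with siCop1. With Dexa, siCTRL libraries held 25.3, 26.4 and 25 CPM in DMSO and 27.9, 27.7 and 28.6 CPM in KL001, and siCop1 libraries 4.41, 4.47 and 4.86 CPM in DMSO and 4.49, 5.11 and 4.97 CPM in KL001. All 12 siCop1 libraries were low and all 12 siCTRL libraries high, with no overlap, so Rfwd2 follows the siRNA labels. Without the siCTRL libraries that held heart muscle markers the log2 changes of Rfwd2 were -2.455 when Dexa was added to DMSO, -2.471 under KL001 alone and -2.540 under both. The transcript left with siCop1 was 16.9% of the siCTRL level in DMSO, 17.9% in DMSO with Dexa, 18.5% in KL001 and 17.3% in KL001 with Dexa. In bulk RNA a lower level in all cells and loss from some of them cannot be told apart. A difference in knockdown between settings was not shown: the interactions of siCop1 with Dexa were 0.08 log2 in DMSO (95% interval -0.15 to 0.32) and -0.09 in KL001 (-0.33 to 0.14), neither called. The interactions of siCop1 with KL001 were 0.127 log2 without Dexa and -0.051 with Dexa, also not called. KL001 gave no called change in Rfwd2, with log2 differences from -0.04 to 0.14 and 95% intervals from -0.15 to 0.29. Dexa lowered it once, in siCTRL DMSO, by a log2 change of -0.15 (adjusted p 0.0406), a call kept in 2 of 11 alternatives and lost without replicate 1 or 2 of siCTRL DMSO (adjusted p 0.176 and 0.126) or any of the 3 libraries with Dexa (0.151, 0.0594 and 0.166).

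The ligase subunits that join the receptor to the scaffold moved little. Ddb1, the adaptor (chr19:10605327-10629819, plus strand), was lower with siCop1 in all 4 settings, where 9.55% of all tested genes were. In siCTRL libraries Ddb1 stood at 1310, 1370 and 1370 CPM in DMSO, 1310, 1390 and 1390 CPM in DMSO with Dexa, 1400, 1340 and 1320 CPM in KL001 and 1430, 1420 and 1440 CPM in KL001 with Dexa. With siCop1 the corresponding values of Ddb1 were 1230, 1240 and 1240, then 1270, 1250 and 1260, then 1270, 1270 and 1240, and 1340, 1310 and 1340 CPM. Within each setting every siCop1 library was below every siCTRL library, a separation found in this direction for 23.3%, 22.3%, 21.7% and 24.1% of all genes. The changes in Ddb1 were -0.12 (SE 0.027), -0.11, -0.10 and -0.10 log2, with adjusted p-values of 0.00053, 0.00144, 0.00315 and 0.00353, that is a loss to between 91.7% and 93.1% of the siCTRL level. The call in KL001 without Dexa was lost in a fit on the groups compared only (adjusted p 0.0785). With Dexa, Ddb1 rose by 0.08 log2 in siCTRL KL001 and by 0.08 in siCop1 KL001 (adjusted p 0.0225 and 0.0237), each call lost in 4 of 11 alternatives: the first without replicate 2 or 3 of siCTRL KL001 or replicate 1 with Dexa (adjusted p 0.055, 0.121 and 0.0526), the second without replicate 3 of siCop1 KL001 or replicate 1 or 3 with Dexa (0.114, 0.0765 and 0.0857). The 6 siCTRL libraries without heart muscle markers held 1310 to 1440 CPM of Ddb1, and without the other 6 the siCop1 changes were -0.096, -0.107 and -0.108 log2 in the 3 settings that allow it (adjusted p 0.0122, 0.00609 and 0.00561). The exons of Ddb1 share 328 bases, 5.12% of their length, with the antisense gene Tkfc, and the strand setting of the counting is not given in the sources used here; Tkfc held 26.8 to 34.5 CPM, with siCop1 differences of 0.16, 0.18, 0.10 and 0.20 log2, of which the third was not called (adjusted p 0.117), and its part in the Ddb1 result was not tested.

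Det1 (chr7:78821547-78847263, minus strand), the subunit that bridges Ddb1 and Cop1, held 14.7, 16.3 and 14.5 CPM in siCTRL DMSO and 14.1, 12.4 and 13.8 CPM in siCop1 DMSO without Dexa. All 3 siCop1 values of Det1 were below the siCTRL values, as for 23.3% of all genes. The log2 change was -0.17 (SE 0.063, adjusted p 0.0397). That call was kept in 4 of 11 alternatives and lost without replicate 2 of siCTRL DMSO or replicate 2 or 3 of siCop1 DMSO (adjusted p 0.255, 0.235 and 0.0519). In the other settings the siCop1 difference in Det1 was -0.09 (95% interval -0.23 to 0.04), -0.13 (-0.26 to -0.00) and -0.03 (-0.17 to 0.10), none called, also without the siCTRL libraries that held heart muscle markers (-0.125, -0.122 and -0.041). Dda1 (chr8:71469199-71476098, plus strand), a small stabilising subunit, ranged from 91.7 to 110 CPM over the siCTRL libraries and from 89.7 to 103 CPM over the siCop1 libraries. In DMSO with Dexa the siCTRL libraries held 108, 102 and 104 CPM of Dda1 and the siCop1 libraries 97.6, 96.1 and 97.9 CPM. These did not overlap, a separation found in this direction for 22.3% of all genes. The difference of -0.11 log2 (adjusted p 0.0752) passed in the fit on the groups compared only (-0.105, adjusted p 0.0421).

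The scaffolds Cul4a (chr8:13105621-13147940, plus strand) and Cul4b (chrX:38533274-38576196, minus strand) and the RING protein Rbx1 (chr15:81466296-81476369, plus strand), which docks the ubiquitin-conjugating enzyme, gave no called change. Over the siCTRL libraries Cul4a ranged from 188 to 208 CPM, Cul4b from 111 to 133 CPM and Rbx1 from 89.2 to 108 CPM. Over the siCop1 libraries the ranges were 184 to 200 CPM for Cul4a, 124 to 128 CPM for Cul4b and 86.7 to 101 CPM for Rbx1. All of these ranges overlap. In the 48 tests of Dda1, Cul4a, Cul4b and Rbx1 against siCop1, KL001 and Dexa edgeR called 0 and DESeq2 called 0, 2 had an unadjusted p below 0.05, and log2 differences lay between -0.11 and 0.09. The 95% intervals of these differences ran from -0.21 to 0.19. Other single calls appeared when 1 library was left out: Rbx1 with Dexa in siCTRL DMSO without replicate 1 (log2 0.15, adjusted p 0.0226) and Dda1 with siCop1 in KL001 without replicate 3 of siCTRL KL001 (-0.14, adjusted p 0.0142). Without the siCTRL libraries that held heart muscle markers, Dda1 (log2 -0.12, adjusted p 0.0227) and Cul4b (0.10, adjusted p 0.0292) passed for siCop1 in DMSO with Dexa, and so did Trib2 (0.14, adjusted p 0.0174).

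Trib3 (chr2:152337422-152344032, minus strand), the stress-induced Tribbles gene whose promoter window is printed above, fell with siCop1, rose with KL001 and fell with Dexa, in every setting. In DMSO without Dexa the siCTRL libraries held 192, 185 and 182 CPM of Trib3 and the siCop1 libraries 103, 106 and 107 CPM. In DMSO with Dexa the values were 148, 138 and 144 CPM against 78.3, 80.5 and 81.8 CPM. Every siCop1 library thus lay below every siCTRL library given the same treatment. In KL001 the siCTRL libraries held 205, 220 and 210 CPM of Trib3 and the siCop1 libraries 129, 122 and 129 CPM. In KL001 with Dexa the values were 166, 163 and 161 CPM against 95.6, 102 and 104 CPM. Here too the groups did not overlap, and the lowest of the 12 siCTRL libraries (138 CPM) was above the highest of all 12 siCop1 libraries (129 CPM). The order of the 8 group means of Trib3 was siCTRL KL001 (212), siCTRL DMSO (187), siCTRL KL001 with Dexa (164), siCTRL DMSO with Dexa (143), siCop1 KL001 (127), siCop1 DMSO (105), siCop1 KL001 with Dexa (101) and siCop1 DMSO with Dexa (80.2 CPM). Among neighbours in that order, siCop1 DMSO and siCop1 KL001 with Dexa were the pair whose libraries overlapped.

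With siCop1, Trib3 kept 56.4% of its siCTRL level in DMSO, 55.9% in DMSO with Dexa, 59.9% in KL001 and 61.5% in KL001 with Dexa. The log2 changes were -0.83 (SE 0.037), -0.84 (SE 0.038), -0.74 (SE 0.036) and -0.70 (SE 0.037), with adjusted p-values of 1.4e-16, 1.69e-16, 1.1e-15 and 7.32e-15 (edgeR). In the first of these comparisons 257 genes, 1.74% of those tested, fell at least as far and were called, and 9.55% of all genes fell in all 4 settings. The heart muscle markers were higher in 6 siCTRL libraries. Trib3 was 144 to 210 CPM in the 6 siCTRL libraries without them and 138 to 220 CPM in the 6 with them, against 78.3 to 129 CPM with siCop1. These ranges pool settings unequally, since all 3 siCTRL DMSO libraries without Dexa held the markers. Leaving out those libraries, a choice made after seeing the data and possible in 3 settings, gave log2 changes of Trib3 of -0.865 when Dexa was added to DMSO, -0.712 under KL001 alone and -0.705 under both. In DMSO without Dexa all 3 siCTRL libraries held the markers, so there their part in the result was not tested.

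KL001 raised Trib3 by 0.18 (SE 0.036) and 0.19 (SE 0.036) log2 in siCTRL without and with Dexa and by 0.27 (SE 0.037) and 0.33 (SE 0.039) in siCop1 without and with Dexa, with adjusted p-values of 0.00122, 0.00077, 1.34e-05 and 8.66e-07. All 3 KL001 libraries were above all 3 DMSO libraries in each comparison, as for 8.9%, 14%, 11.3% and 12.7% of all genes. Such a rise in all 4 settings was shared by 0.751% of tested genes, and 65 genes (0.44%) in siCop1 without Dexa rose at least as far. The first of the calls was lost in a fit on the groups compared only, which found 225 genes in place of 994 (Trib3: adjusted p 0.0806). Whether siCop1 alters the response of Trib3 to KL001 was asked by the interaction, which was 0.14 log2 with Dexa (95% interval 0.03 to 0.25, adjusted p 0.561) and was not called. Dexa lowered Trib3, with log2 changes of -0.38 (SE 0.036), -0.37 (SE 0.036), -0.39 (SE 0.038) and -0.33 (SE 0.038) in siCTRL DMSO, siCTRL KL001, siCop1 DMSO and siCop1 KL001, with adjusted p-values of 9.09e-10, 1.07e-09, 1.86e-09 and 2.78e-08. In each setting the libraries with Dexa were all below those without, as for 19%, 18.3%, 21.1% and 19.7% of all genes. A fall with Dexa in all 4 settings was found for 7.31% of tested genes. Comparisons of siCop1, KL001 and Dexa that start from siCTRL DMSO share those 3 libraries, so their values stand side by side without a measure of likeness.

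**Figure D3:**
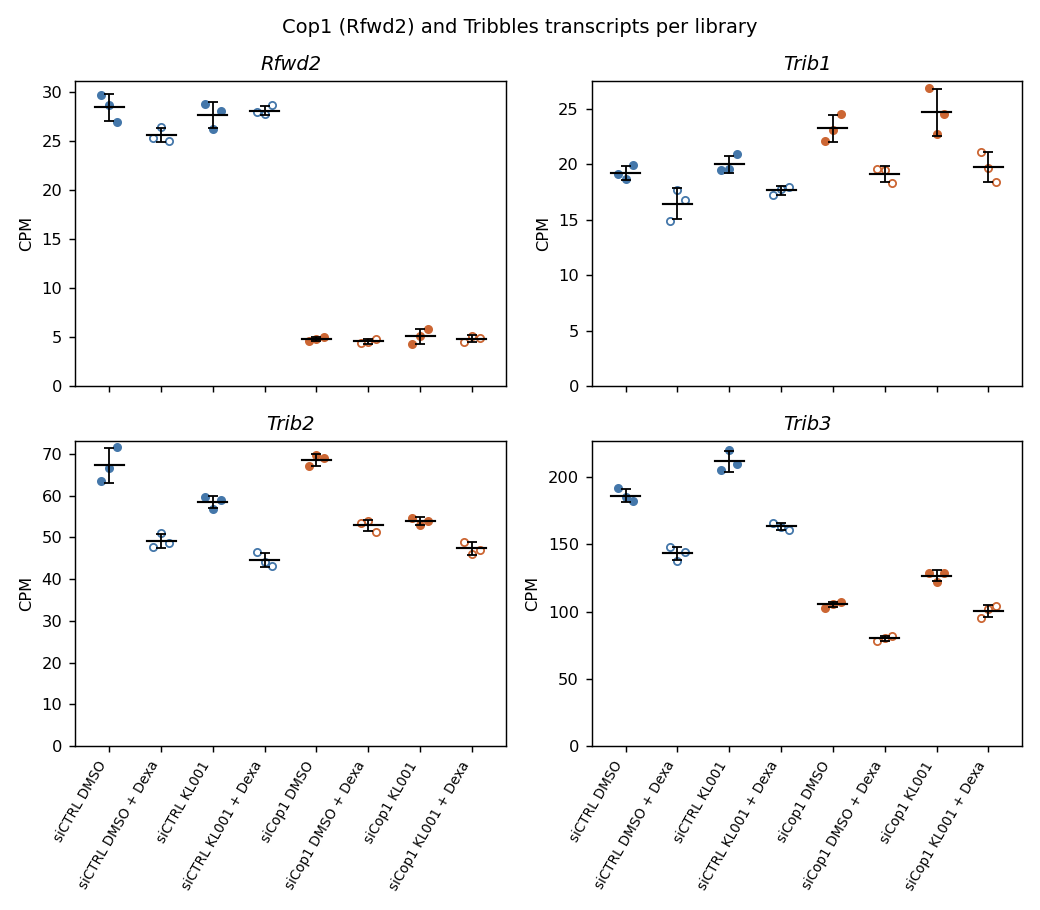
CPM of Rfwd2, Trib1, Trib2 and Trib3 in each of the 24 libraries (points), with the group mean and SD (bars, n = 3), blue for siCTRL and orange for siCop1, open points for libraries with Dexa; each panel has its own axis from 0. The siCop1 libraries lie below all siCTRL libraries for Rfwd2 and Trib3, whereas Trib2 is lower with Dexa within each setting.

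Trib1 (chr15:59648350-59657099, plus strand), the adaptor that presents C/EBPα to Cop1, rose with siCop1 in 3 of 4 settings. The siCTRL DMSO libraries held 19.1, 18.7 and 19.9 CPM of Trib1 and the siCop1 DMSO libraries 22.1, 23.1 and 24.5 CPM. With Dexa in DMSO the values were 14.9, 17.7 and 16.8 CPM against 19.6, 19.5 and 18.3 CPM. The siCop1 libraries were higher in both pairs without overlap. In KL001 they were 19.5, 19.6 and 20.9 CPM against 26.9, 22.7 and 24.5 CPM, and in KL001 with Dexa 17.2, 17.8 and 18 CPM against 21.1, 19.7 and 18.4 CPM. The last pair was separated by the narrowest gap, from 18 to 18.4 CPM, and in this direction 19.4%, 21.2%, 17.9% and 21.2% of all genes were separated in the 4 settings. The log2 changes of Trib1 were 0.27 (SE 0.065), 0.22 (SE 0.069), 0.30 (SE 0.064) and 0.16 (SE 0.069), with adjusted p-values of 0.00181, 0.0159, 0.000441 and 0.0754, so 3 of the 4 passed. In DMSO with Dexa the change was lost without replicate 1 of siCTRL (log2 0.14, adjusted p 0.164) or without replicate 1 or 2 of siCop1 (adjusted p 0.0664 and 0.0579), and in KL001 with Dexa it passed without replicate 3 of siCop1 (0.21, adjusted p 0.0401) and in the fit on the groups compared only (0.0367). The 6 siCTRL libraries without heart muscle markers held 14.9 to 20.9 CPM of Trib1 and the 6 with them 17.7 to 19.9 CPM, against 18.3 to 26.9 CPM with siCop1. Without the latter 6 the changes of Trib1 were 0.271, 0.290 and 0.166 log2 in the settings that allow it (adjusted p 0.00794, 0.00241 and 0.111).

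KL001 gave no called change in Trib1, with log2 differences from 0.04 to 0.10 and 95% intervals from -0.09 to 0.24. Dexa lowered Trib1 in all 4 settings, with log2 changes of -0.23 (SE 0.069), -0.18 (SE 0.068), -0.28 (SE 0.065) and -0.32 (SE 0.065) in siCTRL DMSO, siCTRL KL001, siCop1 DMSO and siCop1 KL001. The adjusted p-values were 0.0125, 0.047, 0.00144 and 0.000268, and 7.31% of tested genes were called lower with Dexa in all 4 settings. The first was lost without replicate 3 of siCTRL DMSO or replicate 1 with Dexa (adjusted p 0.0829 and 0.175), and the second was lost in all 11 alternatives (adjusted p 0.0522 to 0.176). The siCop1 by Dexa interaction of Trib1 was -0.05 in DMSO (95% interval -0.25 to 0.14) and -0.14 in KL001 (-0.33 to 0.05), neither called, so a different response to Dexa with siCop1 was not shown.

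Trib2 (chr12:15791727-15816922, minus strand), the other C/EBPα-directed adaptor, was lower with Dexa and with KL001 in each setting, and its differences with siCop1 went both ways. In siCTRL the libraries held 63.5, 66.6 and 71.7 CPM of Trib2 in DMSO and 47.8, 51.1 and 48.6 CPM in DMSO with Dexa. In siCTRL KL001 they held 59.6, 56.9 and 58.9 CPM without and 46.4, 44.2 and 43.2 CPM with Dexa. The libraries with Dexa were low in both pairs, without overlap. With siCop1 the values of Trib2 were 67.0, 69.7 and 69.0 CPM in DMSO and 53.5, 53.8 and 51.4 CPM in DMSO with Dexa. In siCop1 KL001 they were 54.7, 53.0 and 54.0 CPM without and 49.0, 46.1 and 47.0 CPM with Dexa. Again no library with Dexa reached one without it, and the gap was narrowest in siCop1 KL001. Such a separation was found for 19%, 18.3%, 21.1% and 19.7% of all genes in siCTRL DMSO, siCTRL KL001, siCop1 DMSO and siCop1 KL001. A called fall with Dexa in all 4 settings was found for 7.31% of tested genes. The log2 changes with Dexa were -0.45 (SE 0.042), -0.39 (SE 0.043), -0.37 (SE 0.042) and -0.19 (SE 0.043) in siCTRL DMSO, siCTRL KL001, siCop1 DMSO and siCop1 KL001, with adjusted p-values of 5.92e-10, 1.87e-08, 2.41e-08 and 0.00125. The smaller change in siCop1 KL001 gave the smallest adjusted p among the interactions of the 10 genes, 0.204 for siCop1 by Dexa in KL001 (0.20 log2, 95% interval 0.08 to 0.33), which did not pass.

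KL001 lowered Trib2, opposite to its effect on Trib3, with log2 changes of -0.20 (SE 0.041), -0.14 (SE 0.044), -0.35 (SE 0.041) and -0.16 (SE 0.043) in siCTRL without Dexa, siCTRL with Dexa, siCop1 without Dexa and siCop1 with Dexa. The adjusted p-values were 0.00217, 0.0398, 1.25e-06 and 0.0241, and a fall in all 4 settings was found for 1.05% of tested genes. All KL001 libraries were below all DMSO libraries in each, as for 9.51%, 13.9%, 11.5% and 12.4% of all genes. The third of these passed in all 11 alternatives. The first was lost in the fit on the groups compared only (adjusted p 0.102), the second in 8 of 11 alternatives (with the replicate number as a block, adjusted p 0.0514; without replicate 2 or 3 of siCTRL DMSO with Dexa, 0.161 and 0.0652, or of siCTRL KL001 with Dexa, 0.113 and 0.174) and the last without replicate 1 or 2 of siCop1 DMSO with Dexa (0.0948 and 0.101) or replicate 2 or 3 of siCop1 KL001 with Dexa (0.132 and 0.0915). With siCop1 Trib2 differed by 0.03 log2 in DMSO without Dexa (95% interval -0.06 to 0.11); siCop1 gave 0.11 (adjusted p 0.0591) in DMSO with Dexa, -0.12 (adjusted p 0.0325) in KL001 without Dexa and 0.09 (adjusted p 0.155) in KL001 with Dexa. The siCop1 libraries lay all above those of siCTRL in the second of these settings, as for 21.2% of all genes. In the third they lay all below them, as for 21.7%. The call in KL001 without Dexa was lost in 8 of 12 alternatives, among them RLE scaling (adjusted p 0.052) and leaving out replicate 1 or 3 of siCTRL (0.0973 and 0.0792) or 2 or 3 of siCop1 (0.108 and 0.0665), and the difference in DMSO with Dexa passed without replicate 2 of siCTRL (0.0436).

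The make-up of the Tribbles transcripts shifted with siCop1, mainly through the fall of Trib3. In DMSO without Dexa the mean CPM per kilobase went from 87.8 to 49.5 for Trib3 and from 3.08 to 3.72 for Trib1. For Trib2 it went from 15.5 to 15.8, which was not called, so a larger share of Trib2 is not a higher level. Of the summed CPM per kilobase of the 3 genes, Trib3 made up 82.5% ± 1.18 in siCTRL DMSO and 71.7% ± 0.119 in siCop1 DMSO. The share of Trib1 was 2.9% ± 0.113 and 5.38% ± 0.187, and that of Trib2 14.6% ± 1.08 and 22.9% ± 0.188. The single libraries did not overlap for any of the 3 shares. In KL001 without Dexa the share of Trib3 was 85.6% ± 0.678 with siCTRL and 78.5% ± 0.331 with siCop1, above its DMSO value in both. These shares were not tested apart from the levels they are made of, and with 3 libraries a group an exact permutation test could not have reached the threshold.

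**Figure D4:**
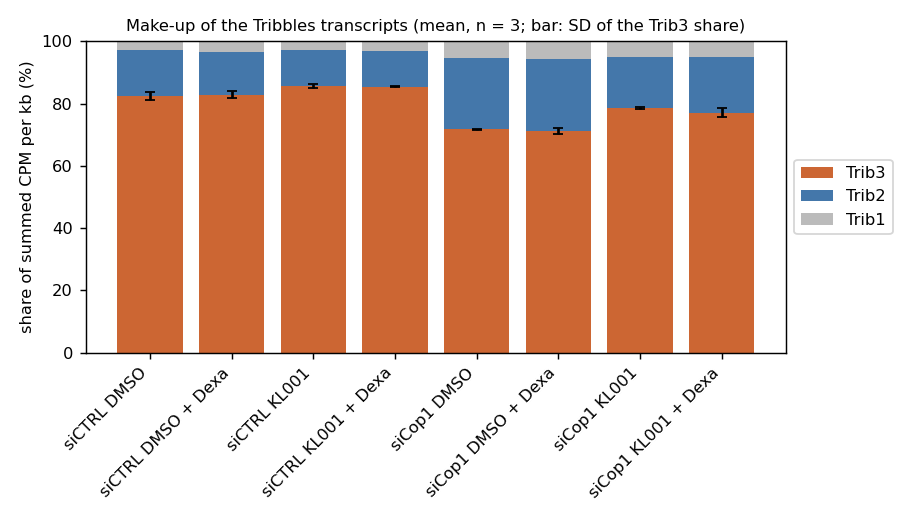
Share of Trib1, Trib2 and Trib3 in the summed CPM per kilobase of exons in each group (mean, n = 3), with the SD of the Trib3 share as the bar. Trib3 makes up 82.5% in siCTRL DMSO, 85.6% in siCTRL KL001, 71.7% in siCop1 DMSO and 78.5% in siCop1 KL001.

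Other genes of the same pathways were read from 6 lists. The list nearest to Trib3 holds 14 genes of the ATF4 and CHOP arm of the integrated stress response, Trib3 itself left out. Atf4 and the CHOP gene Ddit3 are among the 14. With siCop1, 13, 14, 13 and 13 of the 14 fell and 0 rose in DMSO, DMSO with Dexa, KL001 and KL001 with Dexa, where 16.6%, 16.7%, 18.2% and 16.3% of all genes fell. The list's median log2 differences were -0.49, -0.44, -0.44 and -0.36, and the median of all genes was within 0.01 of 0 in each. Under DMSO alone Atf3, a stress-induced repressor, fell from 26.7 ± 0.676 to 17 ± 1.16 CPM (log2 -0.65, adjusted p 1.81e-09). Slc3a2, a shared chain of amino acid transporters, fell from 517 ± 17.7 to 342 ± 4.28 CPM (-0.60, adjusted p 6.84e-16). The lipoprotein receptor Vldlr (-0.55) and the mitochondrial folate enzyme Mthfd2 (-0.55) followed. These decreases were smaller than that of Trib3 at -0.83, and the gene of the list that did not pass there was the cystine transporter Slc7a11 (-0.15, adjusted p 0.151). Without the siCTRL libraries that held heart muscle markers 14, 13 and 14 genes fell in the 3 settings that allowed it.

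KL001 moved the stress list the other way: 8, 8, 8 and 12 of the 14 rose and 0 fell in siCTRL without Dexa, siCTRL with Dexa, siCop1 without Dexa and siCop1 with Dexa, where 3.22%, 4.98%, 1.77% and 2.5% of all genes rose. Their medians were 0.11, 0.13, 0.14 and 0.20 log2. In siCTRL without Dexa the fit on the groups compared only called 1 of the 14. The named genes there were Slc7a11 (0.30, adjusted p 0.0129), Atf3 (0.24, adjusted p 0.00921), the serine synthesis enzyme Psat1 (0.20, adjusted p 3.16e-06) and the asparagine synthetase Asns (0.15, adjusted p 0.000137). Slc7a11 lost its call without replicate 1 of siCTRL DMSO or replicate 1 or 3 of siCTRL KL001, with adjusted p-values up to 0.0769. With Dexa the list changed in both directions, with 3 higher and 5 lower in siCTRL DMSO (median -0.06), 3 and 4 in siCTRL KL001 (-0.03), 2 and 8 in siCop1 DMSO (-0.10) and 3 and 4 in siCop1 KL001 (-0.04), where of all genes 12.7%, 12.7%, 12% and 12.1% were higher and 14.1%, 14%, 11.6% and 12.4% lower. In siCTRL DMSO Atf3 (-0.38), Slc7a11 (-0.37) and Ddit3, which encodes CHOP (-0.37), fell like Trib3 and Vldlr rose (0.23).

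**Figure D5:**
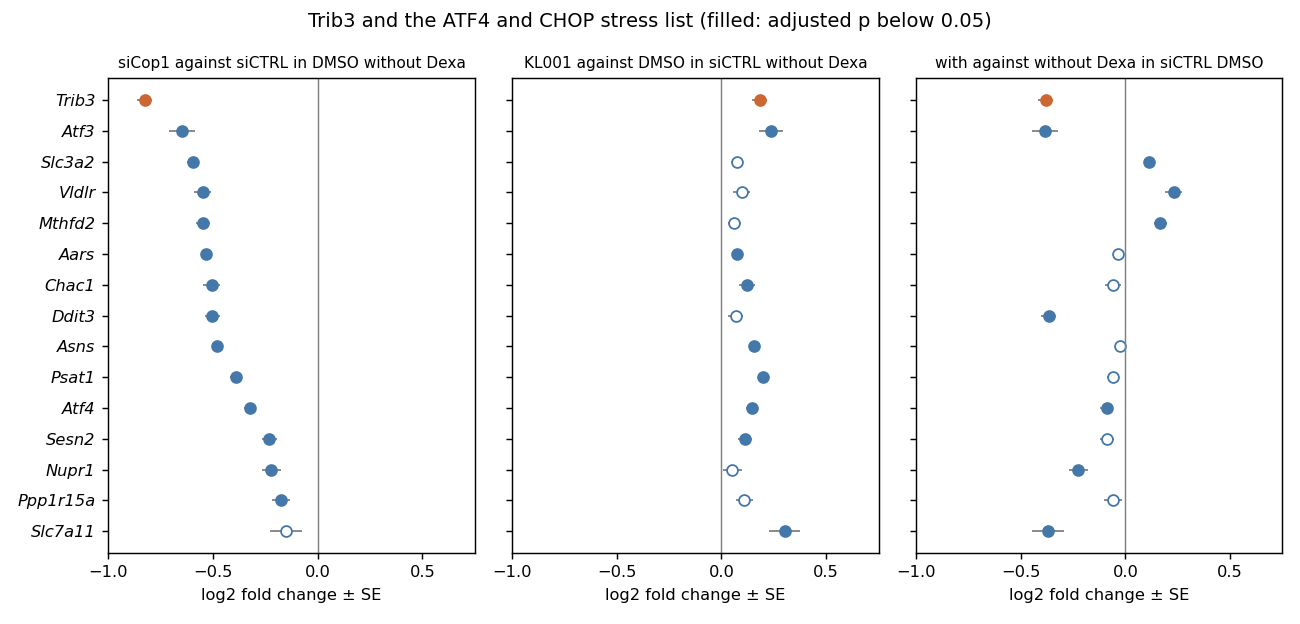
Log2 fold change ± SE of Trib3 (orange) and the 14 genes of the ATF4 and CHOP list (blue) for siCop1, KL001 and Dexa in the settings named above the panels; filled points have an adjusted p below 0.05. All 14 lie left of 0 with siCop1, all right of 0 with KL001, and on both sides with Dexa.

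The ubiquitin-conjugating (E2) enzymes listed as possible partners of the ligase were 8 genes, of which siCop1 changed 4, 4, 3 and 3 in the 4 settings, or 50%, 50%, 37.5% and 37.5% beside 29.4%, 31.1%, 32.7% and 30.1% of all genes. Without the siCTRL libraries that held heart muscle markers 4, 3 and 3 changed in the settings that allow it. Ube2e1 stood out in size. It was 46.8, 45.4 and 45.4 CPM in siCTRL DMSO and 29, 26.4 and 28.9 CPM in siCop1 DMSO. In the other settings Ube2e1 held 45 to 50.4 CPM with siCTRL and 25.4 to 27.7 CPM with siCop1. No siCop1 library reached a siCTRL library, also not among the 6 without heart muscle markers (45 to 50.4 CPM). Its log2 changes were -0.71 (SE 0.049, adjusted p 1.92e-12), -0.85, -0.85 and -0.84, passed in every alternative and were not joined by a called change with KL001 or Dexa. Cdc34 (0.23), Ube2e3 (0.16) and Ube2g1 (-0.13) also changed in DMSO without Dexa; Cdc34 was lost without replicate 1 of siCop1 DMSO (adjusted p 0.0504) and Ube2g1 without replicate 1 of siCTRL DMSO (0.137). KL001 changed 0 of the 8 in each of its settings, where 6.73%, 10.6%, 4.09% and 5.46% of all genes changed. With Dexa in siCTRL DMSO 3 of the 8 changed, or 37.5%, beside 26.8% of all genes. These were Ube2d1 (-0.16), Ube2g1 (-0.13) and Ube2e3 (0.10). Each lost its call without replicate 1 of siCTRL DMSO and without at least 1 of the libraries with Dexa (adjusted p-values up to 0.0624, 0.25 and 0.101).

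Cullins are switched on by attachment of the ubiquitin-like protein Nedd8 and off by its removal. Of 14 neddylation and exchange genes siCop1 changed 2, 5, 4 and 3 in the 4 settings, or 14.3%, 35.7%, 28.6% and 21.4%, beside 29.4%, 31.1%, 32.7% and 30.1% among all genes. Without the siCTRL libraries that held heart muscle markers it changed 6, 3 and 4, counts given without a matching share of all genes. Cand2, one of a pair of factors that exchange cullin adaptors, rose from 33.5 ± 1.05 to 47.2 ± 1.65 CPM in DMSO without Dexa (log2 0.49, adjusted p 3.72e-10), and by 0.57, 0.48 and 0.61 in the other settings. Dexa changed 4 of the 14 in siCTRL DMSO, or 28.6%, close to the 26.8% of all genes changed there. It lowered Cand2 (log2 -0.41, adjusted p 5.29e-08), and Dcun1d3 (0.38), Dcun1d4 (-0.27) and Ube2f (0.24) were the others. Dcun1d2, a Nedd8 ligase cofactor, fell by 0.19 log2 with siCop1. Of the 10 subunits of the COP9 signalosome, which removes Nedd8, siCop1 changed 4, 4, 2 and 3 (40%, 40%, 20% and 30% in turn). Of all genes 29.4%, 31.1%, 32.7% and 30.1% changed. Without the heart muscle marker libraries siCop1 changed 3, 3 and 3 of the subunits. In the first setting these were Myeov2 (older symbol of Cops9, -0.30), Cops7b (0.20), Cops3 (-0.14) and Cops5 (0.11), of which Cops5 was lost in 6 of 11 alternatives, 5 of them leaving out 1 library, with adjusted p-values up to 0.23. KL001 changed 0 of the 10 subunits in each setting, where 6.73%, 10.6%, 4.09% and 5.46% of all genes changed. Dexa changed 1 in siCTRL DMSO, Myeov2 (0.22), where 26.8% of all genes changed. The Myeov2 call was lost without replicate 1 of siCTRL DMSO with Dexa (adjusted p 0.132). Among the 7 other cullin and RING genes siCop1 changed 0, 0, 0 and 1, beside 29.4%, 31.1%, 32.7% and 30.1% of all genes. Without the heart muscle marker libraries it changed 0, 1 and 0. Dexa changed 3 in siCTRL DMSO, where 26.8% of all genes changed: Cul1 (-0.13), Cul7 (-0.11) and Cul3 (0.11). KL001 changed 1 in siCTRL without Dexa, Cul7 (-0.10), where 6.73% of all genes changed. The Cul3 call was kept in 7 of 11 alternatives and that of Cul7 with KL001 in 5 of 11 (adjusted p-values up to 0.135 and 0.355).

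The list of described Tribbles partners held 10 genes, of which siCop1 changed 6, 6, 5 and 4 (60%, 60%, 50% and 40%), beside 29.4%, 31.1%, 32.7% and 30.1% of all genes, and 6, 5 and 4 without the siCTRL libraries that held heart muscle markers. Under DMSO alone Cebpa, which encodes the C/EBPα that Trib1 and Trib2 deliver to Cop1, fell from 9.4 ± 1.26 to 6.7 ± 0.617 CPM (log2 -0.49, adjusted p 0.000641). Cebpa also fell under KL001 alone (-0.49, adjusted p 0.000882) and gave no called change with Dexa present, at 6.07 and 6.33 CPM in DMSO and 5.65 and 5.34 CPM in KL001 with siCTRL and siCop1. The kinase genes Map2k1 (-0.33, adjusted p 6.44e-09) and Akt2 (-0.22) fell and the Tribbles-related Stk40 rose (0.19). Map2k1 fell in the other 3 settings as well, by 0.30, 0.34 and 0.33 log2. KL001 changed 0, 1, 0 and 0 of the 10, where 6.73%, 10.6%, 4.09% and 5.46% of all genes changed. Dexa raised Cebpb from 30.5 ± 5.42 to 56.5 ± 0.762 CPM in siCTRL DMSO (0.88, adjusted p 1.83e-05), raised Map2k4 (0.16) and lowered Cebpa (-0.64) and Stk40 (-0.29). With Akt1 and Akt2, 6 of the 10 changed there, where 26.8% of all genes changed.

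By the Pearson correlation of mean log2 CPM over the 8 groups, among 11608 genes, Rfwd2 was most like Actr1a (0.999), Parva (0.998) and Plekhh3 (0.997), and Trib3 most like Acot2 (0.998), Htatip2 (0.997) and Zc3hav1 (0.996). For Trib1 these were Epg5 (0.998), Sh2b3 (0.992) and Pum2 (0.992), and for Trib2 Rnf41 (0.99), Mgat1 (0.988) and Pcdh10 (0.983). The 8 points share libraries, depth and scaling, the correlations are descriptions without a test, and likeness does not carry size: Actr1a had means of 209 CPM in siCTRL DMSO and 178 CPM in siCop1 DMSO, a far smaller step than that of Rfwd2. Acot2 came closer to Trib3 in size, from 34.6 CPM in siCTRL DMSO to 21.9 CPM in siCop1 DMSO, 37 CPM in siCTRL KL001 and 27.5 CPM in siCTRL DMSO with Dexa. By Spearman's correlation over the 24 libraries the closest genes were others: Cdca7, Pvrl3 and Rabggtb for Rfwd2, Plaur, BC055324 and Eml4 for Trib1, Rassf9, Plxdc2 and Tgfbi for Trib2, and Slc24a3, Ugp2 and Cyb5r1 for Trib3.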

How the data were processed

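RNA from 24 fibroblast libraries was sequenced from stranded mRNA preparations, per the labels' protocols. The submitters' processing notes name STAR 2.4.5a, featureCounts of Subread 1.4.6-p3, DESeq2, bcl2fastq 1.8.4 and Picard 1.126 and the builds GRCm38 and mm10; the sources used here do not give the strand setting or gene annotation of the counting. The authors deposited raw read counts per gene symbol. The deposited normalized table (unit: signal) holds those counts divided by 1 factor per library (0.862 to 1.12; 100% of values within 0.02) and was used for that check only. In all 0 columns were left unused.

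Counts were filtered with filterByExpr (minimum count 10, minimum total 15), scaled by TMM and fitted with edgeR 4.0.16 (robust quasi-likelihood, R 4.3.3) with a mean for each group over all 24 libraries, without covariates. All adjusted p-values are edgeR's, two-sided, with Benjamini-Hochberg adjustment over 14772 genes, unless an alternative is named. There were 12 simple comparisons and 6 interactions. The common biological coefficient of variation was 3.71%. Intervals are 95% and hold the spread between replicates. The script was tested on simulated counts. Gene positions and lengths are from GENCODE vM21 (GRCm38), and promoter windows from RefSeq.

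The members and lists were chosen with earlier results of these data known. Named genes are the 10 members, up to 4 called genes of each list per comparison with the largest change, and the 3 genes closest in pattern to Rfwd2 and each Tribbles gene, skipping predicted symbols (Gm and a number, Rik, -ps). List members named beyond this, and Tkfc, were chosen after their values were seen. Alternatives were RLE scaling, no filter, DESeq2 1.42.0, a replicate block, a fit on the groups compared only, leaving out each library, and, added after seeing the data, leaving out siCTRL libraries with over 5 CPM of heart muscle markers.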

Additional observations from a re-analysis of the deposited data

How the results depend on the processing

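Alternatives reversed no direction of a called change. Of the values for single members under alternatives, 2297 kept their side of the threshold, 63 lost and 10 gained a call. The number of the 10 genes changed moved by over 1.5 times in these cases. In the fit on the groups compared only it was 3 in place of 5 for siCop1 in KL001 without Dexa, 0 in place of 2 for KL001 in siCTRL without Dexa, 1 in place of 2 for KL001 in siCTRL with Dexa, and 2 in place of 4 for Dexa in siCTRL KL001. For KL001 in siCTRL with Dexa it was also 1 with no filter, with DESeq2 and with the replicate block. Without the siCTRL libraries that held heart muscle markers it was 7 in place of 4 for siCop1 in DMSO with Dexa. The share of all genes changed in that fit is not given. Leaving out 1 library gave 1 to 2 for KL001 in siCTRL with Dexa and in siCop1 with Dexa, 2 to 4 for Dexa in siCTRL DMSO and 2 to 3 for Dexa in siCTRL KL001. The cause was not tested.

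The labels do not say that a replicate number marks a shared culture or batch, and the libraries were not treated as paired. The deposited library names share a stem across treatments within each siRNA and replicate number, without saying what the stem marks. Correlations between same-numbered libraries of different groups ran from -0.29 to 0.46, and 19 of 84 were above 0.1. Their median was 0.01, beside -0.00 between libraries of other numbers. In all, 13 of 24 libraries were closest to their own number, at most a weak hint from the data and not a statement of the labels. The count to be met by luck was not worked out. The replicate block joined siCTRL and siCop1 libraries by number, although their stems differ. Heart muscle markers were high in replicate 2 of all 4 siCTRL groups (19.2, 95, 88.7 and 23 CPM). With the replicate block 5, 4, 5 and 3 of the 10 genes changed with siCop1.

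Counts over all genes differed by over 1.5 times for KL001 in siCTRL without Dexa (994; 225 in the fit on its groups only, 653 at the lowest without 1 library), in siCTRL with Dexa (1560; 928 without 1 library), in siCop1 without Dexa (604; 950 in the fit on its groups only) and in siCop1 with Dexa (807; 1435 and 502). The interactions called 99, 83, 0, 10, 0 and 10 genes, and 230, 156, 61, 59, 133 and 43 with no filter. Depth and 3 libraries a group limit the precision to the printed intervals.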
